A study of Mus musculus with 8 samples.

Results

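The cytosolic ribosomal protein genes were examined in bone-forming osteoblasts of mice given doxorubicin or saline. They were taken as the rows of the count table whose symbol is Rpl or Rps followed by a number (with an optional a or x) or by p0 to p2, together with Rpsa. This rule, which uses names and no measured value, gave 76 genes of the 21154 in the table, of which 46 encode proteins of the large subunit and 30 encode proteins of the small subunit. All 76 passed the filter on low counts that left 15373 genes for testing, and 74 of them had at least 100 counts in each of the 8 libraries.

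The mice were females that carry Col2.3-GFP, a reporter in which a fragment of the type I collagen promoter drives green fluorescent protein in osteoblasts. Treatment began in young adults aged 8 to 10 weeks and consisted of 4 intravenous injections, at weekly intervals, of doxorubicin at 5 mg/kg (DOX) or of phosphate-buffered saline (PBS). Bone was collected 8 weeks after treatment, the marrow was flushed out, the bone chips were digested, and GFP-positive cells were sorted for polyA RNA sequencing. There were 3 PBS and 5 DOX libraries, each called a biological replicate, and whether each came from a separate animal is not stated, so the p-values measure the spread between these libraries. The labels name 2 batches without saying what they were: batch 1 holds PBS 1, DOX 1 and DOX 2, and batch 2 holds PBS 2, PBS 3 and DOX 3 to DOX 5. The labels of DOX 1 conflict: its title says DOX and its treatment entry says PBS. It was counted as DOX by its title, and the results are also given without it or with it as PBS.

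Ribosomal proteins assemble with ribosomal RNA in the nucleolus into the large subunit, which forms peptide bonds, and the small subunit, which reads the messenger RNA. Their messages begin with a terminal oligopyrimidine (TOP) tract, a run of C and T at the transcription start through which the mTOR pathway and LARP1 control their translation, and their promoters often hold sites for ETS-family factors. Osteoblasts make large amounts of collagen, so the messages for the translation machinery are measured here beside an abundant secretory product. Doxorubicin intercalates into DNA, poisons topoisomerase II and disturbs ribosomal RNA synthesis.

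The start regions of 7 members are shown because the results below turn on these genes: Rpl4 and Rps2 were among the members that followed the others least across the libraries, Rpl6 was among those that followed them most closely, Rpl34 had the widest range, Rps4x was the member whose groups did not overlap, Rpl35 differed most between batches, and Rpl38 is a short, highly expressed member. Each runs 5′ to 3′ on the gene's strand from 60 bases before to 15 bases after the annotated start, from RefSeq on GRCm38.p6, an earlier build than the GRCm39 of the count table. Capitals mark CTTTCC, a pyrimidine hexamer searched on the gene's strand within 50 bases of either side of the start, and GGAAGT, the ETS-type hexamer searched on both strands over 300 bases, which appears as ACTTCC on the opposite strand. Rpl6 also holds CTTTCC within 50 bases of its start, outside the stretch printed.
Rpl4, chr9:64173327-64173401, plus strand: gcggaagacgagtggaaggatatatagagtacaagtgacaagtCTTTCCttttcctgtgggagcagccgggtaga
Rps2, chr17:24720003-24720077, plus strand: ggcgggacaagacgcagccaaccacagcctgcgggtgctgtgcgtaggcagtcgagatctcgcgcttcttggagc
Rpl6, chr5:121204441-121204515, plus strand: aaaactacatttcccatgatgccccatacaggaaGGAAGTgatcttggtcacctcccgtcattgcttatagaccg
Rpl34 (1 of 2 annotated starts), chr3:130730384-130730458, minus strand: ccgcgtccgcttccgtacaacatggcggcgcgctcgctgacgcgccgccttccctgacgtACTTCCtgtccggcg
Rps4x, chrX:102189377-102189451, minus strand: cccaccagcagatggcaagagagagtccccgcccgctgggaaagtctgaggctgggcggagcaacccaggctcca
Rpl35, chr2:39005117-39005191, minus strand: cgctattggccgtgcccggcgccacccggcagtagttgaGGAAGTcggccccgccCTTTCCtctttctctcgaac
Rpl38, chr11:114668520-114668594, plus strand: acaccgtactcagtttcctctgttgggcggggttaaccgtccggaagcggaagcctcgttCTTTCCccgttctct

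Start regions were found for 56 of the 76 members, in 66 windows of 300 bases. CTTTCC was present in 31.8% of these windows, against 4.69% of the 32851 windows of all genes in the table of start regions, and GGAAGT in 48.5% against 23.8%. The large subunit windows held CTTTCC in 42.5% of 40 and the small subunit windows in 15.4% of 26, whereas GGAAGT was present in 50% and 46.2%. On either strand the 2 hexamers can share at most 1 end base, and a match is a description of the letters.

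The libraries held 39419027 to 44299591 counts. Col1a1 and Col1a2, the type I collagen chains that osteoblasts secrete, took 19.1% to 39.5% of them, and all 11 osteoblast markers were measured, with a summed level of 262362 to 434621 CPM (counts scaled to a common library size) in PBS and 278287 to 401098 CPM in DOX and 3 of 11 fitted fold changes above 0. Markers of other cells were low: the summed macrophage list reached 13.4 CPM, the endothelial list 27.8 CPM, the B cell list 90 CPM, and the erythroid list 295 CPM in PBS 1. The neutrophil list spanned 0.434 to 49.1 CPM in PBS and 7.46 to 124 CPM in DOX, and the stromal list 6796 to 7626 CPM in PBS and 7202 to 9319 CPM in DOX. Between DOX and PBS, the fitted log2 fold change was below 0 for 9 of 9 erythroid genes tested, with a median of -0.75 and 2 at an unadjusted p under 0.05. It was above 0 for 6 of 7 neutrophil genes, with a median of 0.75. The exception was Mpo, with -0.46 ± 1.47 (SE). Mpo was at 20.2, 30.7 and 0.0566 CPM in PBS and at 2.47, 1.54, 12.6, 29.5 and 87.2 CPM in DOX 1 to DOX 5. The highest neutrophil sum, 124 CPM, was that of DOX 5. By edgeR, 0 genes of the marker lists passed adjustment. The part of these other cells in the values below was not tested. Because these are bulk libraries, fewer cells of a type and less RNA per cell cannot be told apart.

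The 76 genes together took about 1% of all counts. Their share was 1.33%, 0.599% and 0.675% in PBS 1 to PBS 3, and 1.6%, 0.818%, 0.754%, 1.17% and 1.05% in DOX 1 to DOX 5. The groups overlapped, since PBS 1 lay above every DOX library except DOX 1. The means were 0.87% ± 0.405 (SD, n = 3) in PBS and 1.08% ± 0.338 (SD, n = 5) in DOX, so the difference of 0.209 percentage points was smaller than either SD. Within batch 2 all 3 DOX libraries lay above both PBS libraries, by 0.353 points on average, and within batch 1 the DOX mean lay below the single PBS library, with a difference of -0.124 points. The difference was 0.0772 points without DOX 1 and -0.106 points with DOX 1 counted as PBS. Counting error was far smaller than these differences, since the widest 95% Wilson interval of a library's share was 0.00784 percentage points.

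The libraries with a high ribosomal protein share had a low collagen share. Collagen took 19.1% of counts in PBS 1, 23.2% in DOX 1 and 26% in DOX 4, against 39.5% in PBS 2 and 38.7% in PBS 3. Taken over the counts outside these collagen genes, the ribosomal protein share was 1.65%, 0.989% and 1.1% in PBS 1 to PBS 3 and 2.09%, 1.27%, 1.13%, 1.58% and 1.46% in DOX 1 to DOX 5. The libraries kept the same order, but the mean difference within batch 1 changed sign, from -0.124 to 0.0288 percentage points, and within batch 2 it was 0.344. On this scale the ratio of the highest to the lowest library was 2.11 in place of 2.68. The share of mitochondrial transcripts moved the same way, from 0.56% in PBS 2 to 1.77% in DOX 1, as did the number of genes detected, which was lowest in PBS 3 with 17296 and highest in DOX 1 with 19241. What these shares contributed to the ribosomal protein values was not tested.

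**Figure D1:**
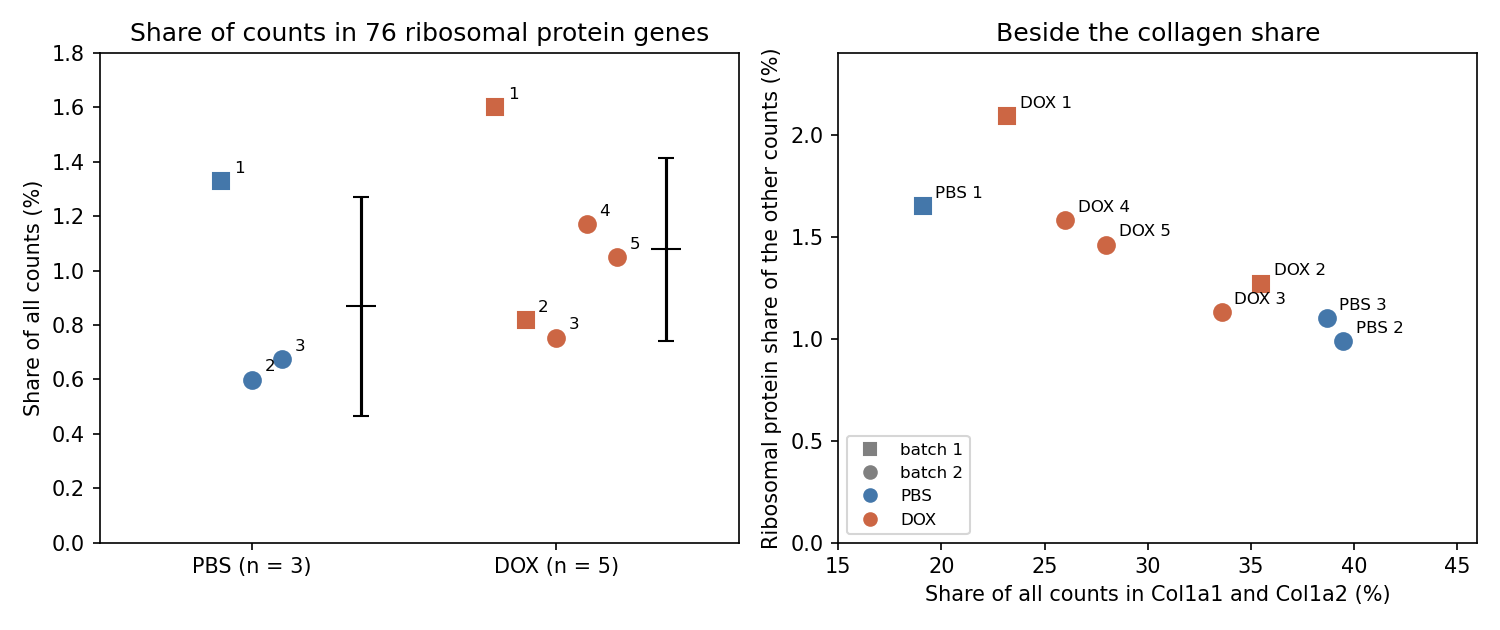
Left, the share of all counts (%) taken by the 76 ribosomal protein genes in each library (squares batch 1, circles batch 2, numbers give the replicate), with the group mean and SD as bars. Right, their share of the counts outside Col1a1 and Col1a2 (%) against the collagen share (%), where PBS 2 and PBS 3 have the highest collagen shares, 39.5% and 38.7%, and the lowest ribosomal protein shares, 0.989% and 1.1%.

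No member passed the test of DOX against PBS. edgeR's quasi-likelihood test with a batch term gave 0 of 76 members, and 0% of the 15373 genes tested, at an adjusted p (Benjamini-Hochberg) under 0.05, and the adjusted p was 0.995 for every member. At an unadjusted p under 0.05 there were 4 members, or 5.26%, against 3.71% of all genes. The same count was 5 members by DESeq2, against 4.27% of genes, and 48 members by limma-voom with quality weights, against 10.2% of genes, with smallest adjusted p of 0.922 and 0.49 for a member. The fitted log2 fold change was above 0 for all 76 members and for 53% of all genes. Its median was 0.25 over the members, 0.23 for the large and 0.28 for the small subunit, and 0.02 over all genes, with a range of 0.10 to 0.59 and a median standard error of 0.17. The 95% interval spanned 0 for 72 members, and its median width was 0.77 on the log2 scale.

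The size of the members' median log2 fold change, and the number of members above 0, changed with the setting. The median over members was 0.18 without DOX 1, with 75 above 0, and 0.08 with DOX 1 counted as PBS, with 69 above 0. It was 0.15 without PBS 2 and 0.17 without DOX 4. It was 0.35 in batch 2 alone and 0.35 without PBS 1 and DOX 1 together. Scaling by library totals alone gave 0.35, but moved the median of all genes to 0.11 and the share of all genes above 0 to 66.1%.

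The 4 members of smallest unadjusted p were Rpl30, Rpl28, Rps4x and Rps21. Rps4x, an X-linked gene for a small subunit protein, was measured at 116, 110 and 124 CPM in PBS 1 to PBS 3 and at 150, 133, 125, 152 and 147 CPM in DOX 1 to DOX 5. It was the 1 member in which every DOX library lay above every PBS library, a pattern found in 1.24% of all genes, although DOX 3 and PBS 3 differed by about 1 CPM. Its log2 fold change was 0.27 ± 0.12 (SE; unadjusted p = 0.045, adjusted p = 0.995 by edgeR), and the difference in mean log2 CPM was 0.29 within batch 1 and 0.26 within batch 2.

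Rpl30, a large subunit protein that can bind its own transcript in yeast, was at 33.1, 36.5 and 42.1 CPM in PBS 1 to PBS 3 and at 57, 51.9, 40.7, 46.4 and 47.7 CPM in DOX 1 to DOX 5. The DOX 3 library lay below PBS 3, and the others lay above every PBS library. Its log2 fold change was 0.37 ± 0.14 (SE; unadjusted p = 0.0239, adjusted p = 0.995 by edgeR), and the within-batch differences were 0.71 in batch 1 and 0.19 in batch 2. Without PBS 1, its lowest library, the log2 fold change was 0.20.

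Rpl28, another large subunit protein, was at 50, 57.1 and 57.9 CPM in PBS and at 62.2, 57.5, 65.7, 69.4 and 73.4 CPM in DOX 1 to DOX 5. DOX 2 lay within the PBS range and the other 4 DOX libraries lay above it, with a log2 fold change of 0.27 ± 0.10 (SE; unadjusted p = 0.0279, adjusted p = 0.995 by edgeR). Rps21, a small protein of the small subunit, was at 52.3, 35.6 and 36.4 CPM in PBS and at 85.1, 44.8, 41.8, 59 and 59.3 CPM in DOX. PBS 1 lay above DOX 2 and DOX 3, so the groups overlapped, and the log2 fold change was 0.48 ± 0.21 (SE; unadjusted p = 0.0456, adjusted p = 0.995 by edgeR). It was 0.33 without DOX 1 and 0.16 with DOX 1 counted as PBS.

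The largest fitted difference was that of Rpl34, a large subunit protein, at 67, 38.2 and 55.5 CPM in PBS 1 to PBS 3 and 139, 46.8, 57.2, 84.8 and 79.8 CPM in DOX 1 to DOX 5. DOX 1 held more than any other library, and DOX 2 and DOX 3 lay below PBS 1. The log2 fold change of 0.59 ± 0.31 (SE) had a 95% interval from -0.09 to 1.27, and it was 0.31 without DOX 1 and 0.07 with DOX 1 counted as PBS. Rpl38, which is needed for translation of certain Hox messages during skeletal patterning, was at 130, 99.6 and 108 CPM in PBS and 218, 106, 121, 164 and 148 CPM in DOX. Here too DOX 1 stood highest and DOX 2 and DOX 3 lay below PBS 1, with a log2 fold change of 0.42 ± 0.21 (SE), or 0.25 without DOX 1. Rps12, of the small subunit, was at 79, 41.2 and 44.7 CPM in PBS and 124, 51.7, 46.3, 81.3 and 68.9 CPM in DOX, with a log2 fold change of 0.44 ± 0.27 (SE). It was 0.62 without PBS 1 and 0.25 without DOX 1. The smallest fitted differences were those of Rpl29 (0.10 ± 0.12), Rpl13a (0.10 ± 0.25), Rpl21 (0.11 ± 0.11) and Rps10 (0.11 ± 0.55), each with its SE.

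By role within the ribosome, the median fitted difference lay between 0.16 and 0.33. The acidic stalk that recruits translation factors, made of Rplp0, Rplp1, Rplp2 and its base Rpl12, had a median log2 fold change of 0.27. Rplp0, the stalk's core and the most highly counted member, was at 480, 363 and 411 CPM in PBS and 498, 430, 401, 542 and 495 CPM in DOX, and the groups overlapped. Rpl5 and Rpl11, which bind 5S ribosomal RNA and can inhibit MDM2 when assembly is disturbed, had log2 fold changes of 0.22 ± 0.19 and 0.19 ± 0.12 (SE). Rpl11 was at 73.9, 73.8 and 74.7 CPM in PBS and 92.1, 71.7, 77.6, 88.2 and 91.4 CPM in DOX, so that DOX 2 alone among the DOX libraries lay below the PBS libraries. Around the peptidyl transferase centre, Rpl3, Rpl8 and Rpl10 had a median of 0.23, and in the wall of the exit tunnel Rpl4, Rpl17 and Rpl39 had a median of 0.21. The 6 proteins at the tunnel's rim (Rpl19, Rpl22, Rpl23a, Rpl26, Rpl31 and Rpl35) had a median of 0.23.

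On the small subunit, the proteins at the mRNA entry, Rps2 and Rps3, had a median log2 fold change of 0.23, and those at the mRNA exit, Rps26 and Rps28, 0.33. Rps28 was at 56.5, 48.8 and 60.4 CPM in PBS and 100, 58.4, 55.5, 72.2 and 73.3 CPM in DOX. DOX 2 and DOX 3 lay within the PBS range, and the other 3 DOX libraries above it. The head and decoding proteins Rps15, Rps18 and Rps23 had a median of 0.22. Rps6, the substrate of S6 kinase downstream of mTOR, had 0.19 ± 0.18 (SE), Rps27a, made as a fusion with ubiquitin, had 0.33 ± 0.23, and Rpsa, also known as the laminin receptor, had 0.16 ± 0.13. Rps19 and Rps14, whose loss underlies Diamond-Blackfan anaemia and the 5q- syndrome, had 0.23 ± 0.21 and 0.26 ± 0.17.

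Between the batches, the fitted level was lower in batch 2 for 65 members, or 85.5%, against 51.6% of all genes. The median log2 difference was -0.23 over the members (-0.60 to 0.21), -0.19 for the large and -0.33 for the small subunit. edgeR's quasi-likelihood test gave 0 members and 0.0911% of all genes at an adjusted p under 0.05, and 10 members, or 13.2%, against 14.6% of all genes at an unadjusted p under 0.05. At that unadjusted level DESeq2 gave 18 members against 13.8% of genes, and limma-voom gave 8 against 13%. The marker lists of other cell types had median fitted log2 differences, batch 2 against batch 1, of -3.94 for the erythroid, -4.28 for the endothelial, -2.91 for the neutrophil and 2.10 for the B cell list, and -0.16 for the macrophage list. Single neutrophil genes went both ways, with 2.26 for Mpo and 4.82 for Elane against -2.91 for S100a9. The part of these marker lists in the members' batch difference was not tested. Rpl35, at the rim of the exit tunnel, had the lowest value of -0.60, with 169, 223 and 101 CPM in PBS 1, DOX 1 and DOX 2 of batch 1 and 83.7, 91.8, 105, 145 and 118 CPM in batch 2. DOX 2 lay among the batch 2 libraries, and PBS 1 and DOX 1 lay above all of them. Without DOX 2, batch 1 held only PBS 1 and DOX 1, the libraries with the highest ribosomal protein shares, 1.33% and 1.6%. In that fit edgeR called 17 members (8 large, 9 small), all lower in batch 2, against 6.18% of the 15167 genes then tested. Their log2 differences were -0.90 to -0.61, with adjusted p of 0.0189 to 0.0462 by edgeR. These 17 members were 22.4% of the 76 and included Rpl35, Rps12, Rps25, Rpl17, Rps27a and Rpl32.

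The DOX against PBS difference was then taken within each batch. In batch 2 the log2 difference was above 0 for all 76 members, with a median of 0.34 (0.03 to 0.66), 0.30 for the large and 0.37 for the small subunit. Every DOX library of batch 2 lay above both PBS libraries of that batch in 33 members, or 43.4%, against 16% of all genes, and 22 of these were large and 11 small subunit genes. In batch 1, where PBS is a single library, the median was 0.02 (-0.28 to 0.71), with 41 members above 0, 31 below and 4 at 0 to 2 decimals. Rpl17, at the exit tunnel, lay at the low end of batch 1 with -0.25, against 0.40 in batch 2, and its levels were 122 CPM in PBS 1 and 147 and 71.3 CPM in DOX 1 and DOX 2. The interaction of group and batch was itself tested: edgeR gave 0 members and 0% of all genes at an adjusted p under 0.05, 0 members against 11.7% of genes at an unadjusted p under 0.05, and a smallest adjusted p of 0.442. DESeq2 and limma-voom each gave 1 member at the unadjusted level, against 9.64% and 12.4% of genes. The median interaction was 0.28 on the log2 scale, and the smallest unadjusted p were 0.0574 for Rpl30 and 0.0579 for Rpl19.

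**Figure D2:**
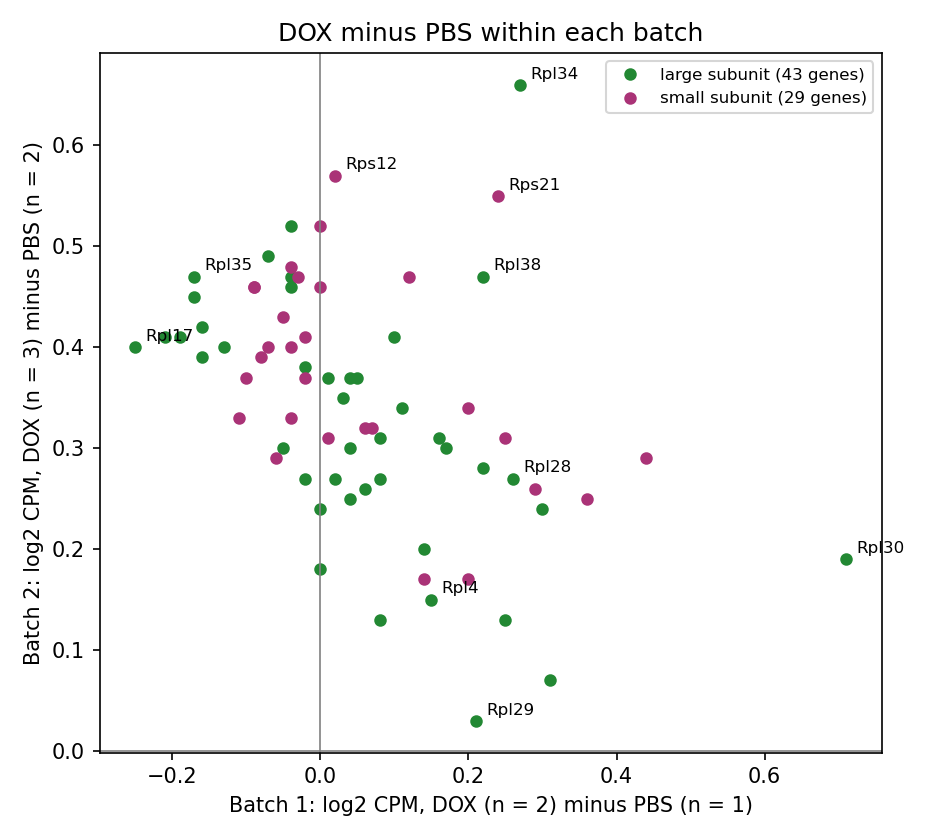
Each point is 1 of the 72 members with a mean of at least 20 CPM, with the DOX minus PBS difference in mean log2 CPM in batch 1 (x axis, 2 DOX libraries and 1 PBS library) and in batch 2 (y axis, 3 DOX and 2 PBS libraries). All points lie above 0 on the y axis, while on the x axis they lie on both sides of 0, from -0.25 for Rpl17 to 0.71 for Rpl30.

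The members varied together across the libraries. For the 72 members with a mean of at least 20 CPM, the first principal component of log2 CPM held 90.1% of the variance over the 8 libraries. The mean log2 CPM over all members was 6.64, 6.13 and 6.33 in PBS 1 to PBS 3 and 6.98, 6.40, 6.30, 6.75 and 6.65 in DOX 1 to DOX 5. DOX 1 was the highest library for 58 members, or 76.3%, against 22.3% of all genes, and PBS 2 the lowest for 64, or 84.2%, against 12.6%. The median correlation of a member with the mean of the other members was 0.96 over the 8 libraries, and 55 exceeded 0.9, as a description of libraries that share scaling and batch.

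Members differed in how steeply they followed that shared pattern. The slope of a member's log2 CPM on the mean of the others was 2.00 for Rpl34 and 1.96 for Rps12, the highest slopes among the 72 members at or above 20 CPM. It was 0.68 for Rpl6 (r = 1.00) and 1.58 for Rps24 (r = 0.99), which were among the members that followed the others most closely. The median slope was 0.85 for the large and 1.08 for the small subunit. Of the members at or above 20 CPM with a start region, it was 0.88 for the 16 with CTTTCC and 1.06 for the 37 without. These 2 contrasts overlap, since CTTTCC was in 42.5% of the large and 15.4% of the small subunit windows, and they were not separated. The ratio of the highest to the lowest library had a median of 1.83 and spanned 1.24 in Rpl21 to 3.63 in Rpl34.

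Rpl4 and Rps2 were among the members that followed the others least. Rpl4, in the wall of the exit tunnel, was at 348, 384 and 424 CPM in PBS 1 to PBS 3 and 366, 406, 429, 453 and 458 CPM in DOX 1 to DOX 5. Its lowest libraries were PBS 1 and DOX 1, which were among the highest for most members, and its slope was -0.07 (r = -0.13). Rps2, at the mRNA entry, was at 146, 148 and 175 CPM in PBS and 157, 179, 156, 197 and 191 CPM in DOX, with a slope of 0.14 (r = 0.24).

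**Figure D3:**
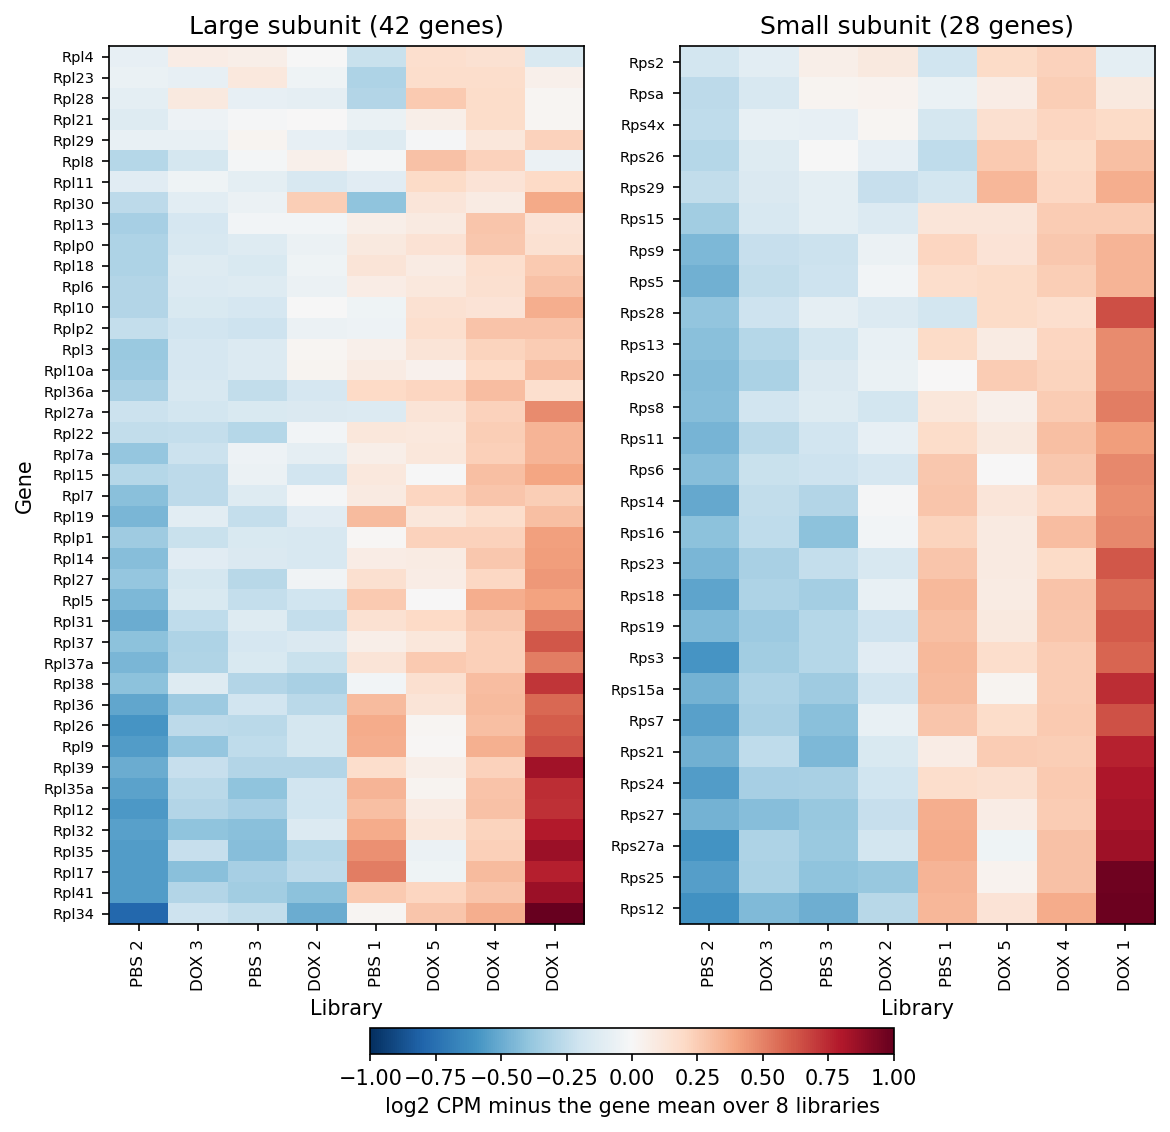
Colour gives each gene's log2 CPM minus its mean over the 8 libraries, for 42 large and 28 small subunit genes with a mean of at least 20 CPM, with genes ordered by their slope on the other members and libraries by the members' mean. DOX 1 is the reddest column and PBS 2 the bluest for most genes, and Rpl4, in the first row on the left, does not follow this order.

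The share of all counts in small subunit genes had a ratio of the highest to the lowest library of 2.96, against 2.51 for large subunit genes. The mean log2 CPM of the large minus that of the small subunit was -0.16, -0.02 and -0.02 in PBS 1 to PBS 3 and -0.21, -0.09, -0.02, -0.13 and -0.08 in DOX 1 to DOX 5, and the groups overlapped. Small subunit genes took 39.9%, 36.9% and 37% of the ribosomal protein counts in PBS and 40.8%, 38.3%, 37%, 38.6% and 38.2% in DOX. The highest values were those of DOX 1 and PBS 1, both of batch 1, and DOX 2 of the same batch lay among the other libraries. The group means were 37.9% ± 1.66 (SD, n = 3) and 38.6% ± 1.39 (SD, n = 5).

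Shorter members had larger fitted differences. Across 72 members, Spearman's rho between the log2 fold change and the coding length was -0.60, and with the transcript length -0.34, as a description across genes that share the same libraries. The 24 members with coding lengths of 75 to 396 bases had a median log2 fold change of 0.30, the 24 of 399 to 564 bases 0.24, and the 24 of 576 to 1257 bases 0.21, and the median slopes on the other members were 1.24, 1.06 and 0.83. In batch 2 the medians of the 3 classes were 0.40, 0.35 and 0.30, and in batch 1 they were 0.07, -0.01 and 0.03. The members' transcripts were short, with a median of 705 bases against 2627 for all genes. A dependence on length and GC content was also removed from all genes, in a limma fit added after the data were seen. The members' median was then 0.07 with 66 above 0, against 0.23 in the same fit without that step. The median of all genes moved from 0.01 to -0.04 with that step, and their share above 0 from 52.2% to 43.3%. With that step limma gave 0 members at an unadjusted p under 0.05, against 4.14% of genes.

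**Figure D4:**
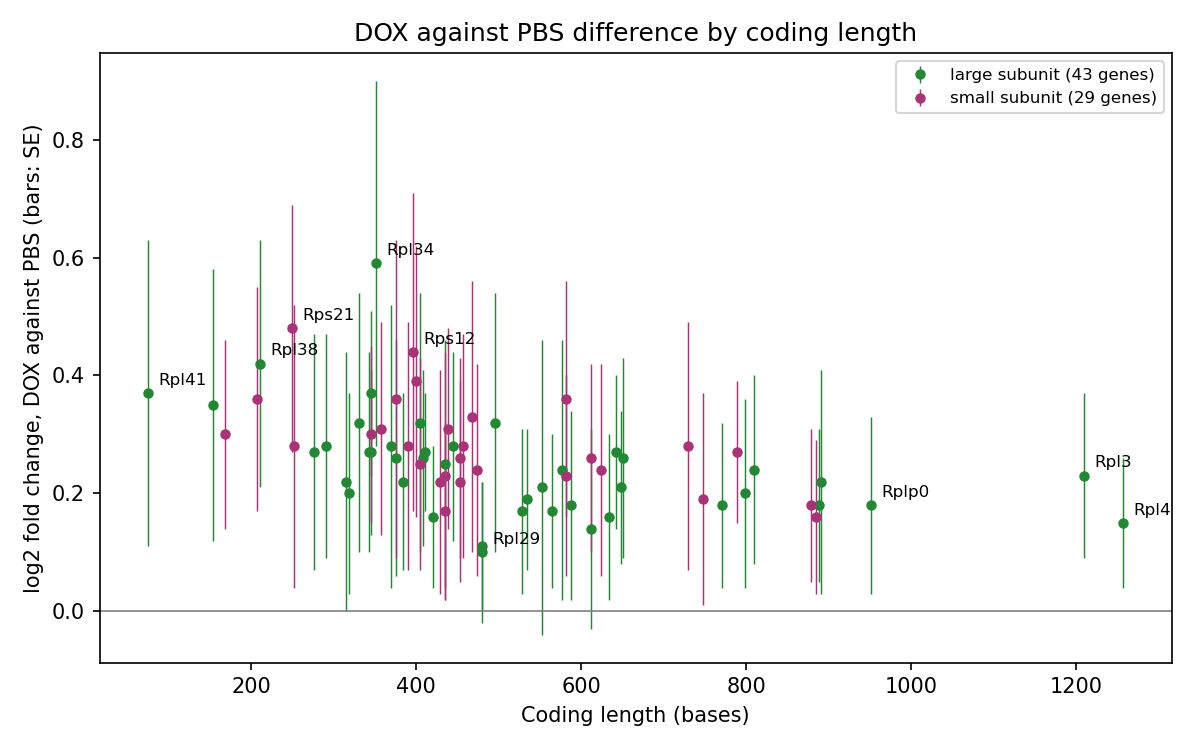
The edgeR log2 fold change of DOX against PBS (y axis, bars give the SE) against coding length in bases (x axis) for the 43 large and 29 small subunit genes with a mean of at least 20 CPM. The points slope downward, from Rpl41 at 75 bases with 0.37 to Rpl4 at 1257 bases with 0.15, and the bars of neighbouring genes overlap.

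Levels per length, as RPKM over all 8 libraries on 1 chosen transcript per gene, had a median of 148, with 144 for the large and 161 for the small subunit. The 5 highest were Rpl41 at 447, Rpl13 at 426, Rps14 at 408, Rpl38 at 396 and Rpl32 at 366. Rpl41 encodes a very short basic peptide, and its CPM was 223, 126 and 146 in PBS and 336, 140, 152, 225 and 216 in DOX, with overlapping groups. The values depend on the transcript chosen for each gene.

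Rps10, Rpl24, Rpl13a and Rpl23a were the 4 members with a mean under 20 CPM. Rps10 had 38, 14 and 13 counts in PBS 1 to PBS 3 and 35, 19, 16, 26 and 18 in DOX 1 to DOX 5, and Rpl24 had 37, 16 and 17 counts in PBS and 52, 19, 24, 15 and 25 in DOX. Nearly all ribosomal proteins are present in a single copy per ribosome. Per length the 4 were at 1.02 RPKM (Rps10), 0.863 (Rpl24), 4.72 (Rpl13a) and 28.7 (Rpl23a), and the lowest of the other members was Rps20 at 21.2 RPKM. The transcript chosen for Rps20 has 3706 bases for a coding length of 357 bases, and its mean was 78.5 CPM. Its RPKM is therefore a poor mark of the low end of the other members. In GENCODE M21, on GRCm38, overlap with exons of other genes on either strand was counted. It covered 91.6% of the exon bases of Rps10, 71.5% of those of Rpl24, 59.3% of those of Rpl13a and 55.4% of those of Rpl23a. The other gene of largest overlap was RPS10-NUDT3, Gm28037, Gm45713 and Tlcd1, in that order. Rpl35, with 68.3% of its exon bases overlapped and Wdr38 as the largest, was not low, at 137 RPKM. The part of these overlaps in the low counts was not tested, and the values of these 4 genes are uncertain. Pseudogenes whose symbol is that of a member followed by -ps had 159 rows, for 53 parent genes. They took 1.58% to 1.72% of the combined counts per library, and any pseudogenes under other names were not included. That range is over all parents together, and the split for single genes by library was not examined. For Rps10 the pseudogene rows held 701 counts against 179 for the gene.

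Other ribosomal proteins outside the naming rule, and other parts of the translation machinery, were read with the same fit. Fau, Rack1 and Rps3a1, ribosomal proteins named differently, had log2 fold changes of 0.20 ± 0.14, 0.23 ± 0.15 and 0.26 ± 0.18 (SE). Rps3a1, of the small subunit, was at 327, 232 and 282 CPM in PBS and 427, 284, 256, 371 and 346 CPM in DOX. Among the paralogs, 8 of 8 tested were above 0, with a median of 0.28. Rpl7l1 (0.01 ± 0.13), Rps4l (0.01 ± 0.22) and Rpl39l (0.04 ± 0.30) lay near 0. The largest value, 0.74 ± 0.86, was that of Rpl3l, at 0.0273 to 0.667 CPM. Rps27l, a p53 target, was at 157, 79.7 and 85 CPM in PBS and 234, 94.4, 91.6, 130 and 125 CPM in DOX. Its log2 fold change was 0.33 ± 0.26 (SE) and the groups overlapped. The 7 elongation factor genes had a median of 0.10 with 6 above 0, and the 18 other genes with TOP messages a median of 0.10 with 17 above 0, among them Tpt1 (0.22 ± 0.15) and Eif3h (0.30 ± 0.16). The 29 initiation factor genes had a median of 0.05 with 18 above 0. The other TOP and initiation lists share at least Eif3f (0.21 ± 0.14), so their medians and counts are not independent.

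Genes for making ribosomes and for regulating their messages were read in the same way. Ribosome biogenesis factors had a median log2 fold change of -0.03, with 20 of 50 above 0, and Ncl, the nucleolar protein nucleolin, had -0.06 ± 0.12 (SE). RNA polymerase I genes had a median of 0.04 with 12 of 19 above 0, and Polr2k, a subunit shared by all 3 polymerases, was at 6.03, 7.17 and 7.17 CPM in PBS and 18.4, 11.3, 8.96, 12.6 and 11.2 CPM in DOX. All DOX libraries lay above all PBS libraries for Polr2k, with a log2 fold change of 0.85 ± 0.23 (SE; unadjusted p = 0.00426, adjusted p = 0.995 by edgeR). The regulators of TOP messages had a median of -0.11 with 5 of 16 above 0, among them Larp4 with -0.39 ± 0.15 and the S6 kinase Rps6kb2 with 0.48 ± 0.18. The mitochondrial ribosomal proteins, which belong to a separate ribosome, had a median of 0.14 with 68 of 77 above 0. The proteasome genes had a median of 0.13 with 33 of 38 above 0. In each of these lists 0 genes passed an adjusted p of 0.05 by edgeR. At an unadjusted p under 0.05, where 3.71% of all genes lay, there were 1 RNA polymerase I gene (5.26%), 2 TOP regulators (12.5%) and 2 mitochondrial ribosomal protein genes (2.6%). There were 0 among the paralogs and the elongation, other TOP, initiation, biogenesis and proteasome genes.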

How the data were processed

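Raw gene counts were used as deposited by the authors, with 1 column per library and 0 unmapped columns; the lowest row total is 10. The submitters' processing notes list build GRCm39, STAR 2.7.9a, featureCounts 2.0.1 and Trim Galore 0.6.6, with SAMtools, FastQC and MultiQC. Strand setting, annotation and handling of multi-mapped reads: not given in the sources used here. Counts were scaled with TMM and filtered with filterByExpr, and DOX was compared with PBS with batch as a term in edgeR 4.0.16 (quasi-likelihood, two-sided, R 4.3.3), with p-values adjusted by Benjamini-Hochberg over all 15373 genes tested. DESeq2 1.42.0 and limma 3.58.1 were alternatives, as were other scalings and filters, a replicate block, no batch term, batch 2 alone, DOX 1 as PBS, and each library left out. Simulated data were used to test the fit. The CPM of single genes and RPKM were TMM-scaled for description, whereas the summed CPM of the marker lists was scaled by library totals without TMM. Within-batch differences and slopes are of log2 CPM with a prior count of 2. Shares have 95% Wilson intervals, which cover counting error only. Transcript lengths and overlaps came from GENCODE M21, and start regions from RefSeq on GRCm38.p6.

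The members named were those with a structural role on a list, the 5 highest by CPM and per length, the 3 largest and 3 smallest fold changes of each subunit, those of small unadjusted p (at most 5 per test), the 3 that followed the others most and least, and Rps19, Rps14 and Rpl38. Rpl24, Rps20, Rps25 and Rpl36a fall outside this rule and were named after their values were seen. A few genes are counted in the totals and not reported by name here. The members and lists were chosen with earlier results of these data known.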

Additional observations from a re-analysis of the deposited data

Results flagged for a closer look

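For Rpl19, at the rim of the exit tunnel, both DOX libraries of batch 1 lay below the PBS library of that batch and every DOX library of batch 2 above both PBS libraries. The DOX minus PBS difference was 0.41 on the log2 scale in batch 2 and -0.21 in batch 1, and the test of the interaction gave an unadjusted p of 0.0579 by edgeR. The levels were 122 CPM in PBS 1 against 121 and 90.5 CPM in DOX 1 and DOX 2, and 71.5 and 83.2 CPM in PBS 2 and PBS 3 against 91.2, 111 and 106 CPM in DOX 3 to DOX 5. DOX 1 and PBS 1 were nearly equal, and the batch 1 comparison rests on 1 PBS library.

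Rpl36a, of the large subunit, had the same opposite pattern, with 0.41 in batch 2 and -0.19 in batch 1 and an interaction p of 0.0697 by edgeR, unadjusted. It was at 45.2 CPM in PBS 1 against 44.4 and 35.2 CPM in DOX 1 and DOX 2, and at 31.5 and 33.3 CPM in PBS 2 and PBS 3 against 35.3, 48.9 and 45.8 CPM in DOX 3 to DOX 5.

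Rps10, one of the 4 low members, had it too, with 0.29 in batch 2 and -0.28 in batch 1 and an interaction p of 0.608 by edgeR, unadjusted. Its libraries held 13 to 38 counts, so the values carry a large counting error.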

How the results depend on the processing

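Every setting with a fit, 22 besides the reported one, gave 0 members past the threshold for DOX against PBS. Over the named members, 1086 of 1099 values kept their direction and their side of the threshold. The 13 that reversed were Rpl13a with -0.05 under the replicate block and -0.00 without DOX 5, Rps10 with -0.03 without DOX 4, and, with DOX 1 counted as PBS, Rpl17 with -0.03, Rpl39 with -0.01, Rpl29 with -0.03 and Rps27 with -0.01. With length and GC content removed, which was added after seeing the data as was leaving out PBS 1 and DOX 1 together, they were Rpl17 with -0.03, Rpl22 with -0.01, Rpl29 with -0.06, Rpl13a with -0.07, Rpl21 with -0.03 and Rps10 with -0.08. The cause was not tested. The count of all genes called was 0, but 26 by DESeq2 and 2 with length and GC content removed. With 1 library left out, the members called between batches numbered 0 to 17, the 17 without DOX 2. The members' median log2 fold change then spanned 0.15 to 0.36 (large subunit 0.13 to 0.33, small 0.17 to 0.39), the members above 0 numbered 75 to 76, and the share difference spanned 0.0731 to 0.441 percentage points. For Rpl13a the values with 1 library left out reached 0.23 and for Rps10 0.35. The interaction without PBS 1 could not be fitted.

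Under the replicate block, fitted in place of batch, 0 members and 0 genes were called, and the members' median was 0.19 with 75 above 0. That difference rests on the 3 pairs of equal number, since DOX libraries without a PBS partner do not enter it. The pair numbered 2 crosses batches, with PBS 2 in batch 2 and DOX 2 in batch 1. Libraries of equal number deviated together with r of 0.25, -0.05 and 0.24 for numbers 1 to 3. Numbers 1 and 3 correlated best with their own number, and these pairs also share a batch. The correlations therefore cannot decide whether equal numbers mark pairs, and the numbers were not taken to pair the libraries. The median 95% interval width of 0.77 limits what size of difference could be seen with 3 and 5 libraries.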
